A study of Drosophila melanogaster with 6 samples.

Results

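Notch pathway genes were followed through the macrophages of the fly at the onset of metamorphosis. The genes are N, Dl, Ser, Su(H), H, fng, neur, mam and numb, found by their symbols as 9 of the 13395 genes of the count table. The hemocytes, the blood cells of Drosophila, came from animals of the genotype Hml-GAL4.delta, UAS-GFP. In these animals the hemolectin (Hml) driver makes GFP in most circulating macrophages, called plasmatocytes. GFP-positive cells were sorted from wandering L3 larvae (3 libraries) and from white prepupae (3 libraries), and every animal of both stages carried the same driver and reporter. Macrophages were taken from animals of both sexes. The study states for its experiments in general that they used different flies or cells and were spread over different days, and that RNA was prepared in triplicate, but the sample labels do not tie a library to its own animals or day. The p-values below measure the spread between these libraries. Because whole sorted populations were sequenced, fewer cells of a type and less RNA per cell cannot be told apart.

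In Notch signalling, a ligand on the surface of a cell binds the receptor Notch on its neighbour. The ligand is then pulled into its own cell, Notch is cut, and the freed intracellular part enters the nucleus, where it joins the DNA-binding protein Su(H) and the coactivator Mastermind. Without this signal, Su(H) binds Hairless and represses the same targets. In the blood of the larva, the pathway is best known for directing progenitors and some plasmatocytes into crystal cells, which carry prophenoloxidase.

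The libraries held between 19228352 and 25958543 counts. A CPM value is a count divided by the TMM-scaled library total and multiplied by 1000000. The log2 fold change (log2FC) always sets prepupae over larvae, and SE is its standard error. Genes were called when their p from edgeR, adjusted over all 7914 tested genes by Benjamini-Hochberg (FDR), lay below 0.05. Long transcripts were lower in prepupae across the whole table, with a Spearman correlation of -0.40 between exonic length and log2FC over 7873 genes, so values are also given after each library's length trend had been taken out. The cells carried the markers of plasmatocytes, although Hml itself, the gene behind the driver, went from 4910 ± 1590 CPM in larvae to 149 ± 87.6 CPM in prepupae (SD, n = 3 each). Of the 8 plasmatocyte markers, 7 were called lower in prepupae and 1 was called higher, and their summed expression was 16500 to 24900 CPM in larval and 4170 to 6720 CPM in prepupal libraries. The 5 listed markers of lamellocytes, another blood cell type, summed to 1000 to 1400 CPM in larval and 520 to 642 CPM in prepupal libraries. Of the 4 tested, cher was called lower (log2FC -5.39, edgeR FDR = 3.9e-06). The prophenoloxidase gene PPO3 was called higher (1.29, edgeR FDR = 4.5e-05), and 2 were not called. The markers of neurons and imaginal discs summed to at most 6.27 CPM, those of muscle to at most 12.7 CPM, those of salivary glands to at most 10.3 CPM and those of the fat body to at most 34.8 CPM in any library.

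Of the 9 genes, 8 had enough counts to be tested, and 6 of these 8 were lower in prepupal hemocytes. These were the receptor gene N, the ligand gene Ser, the ubiquitin ligase gene neur and the nuclear genes Su(H), H and mam. No member was called higher by edgeR, 0 were higher at an unadjusted p below 0.05, and DESeq2 and limma-voom also called 0 higher. Across the table, 53.9% of the tested genes were called, 27.3% as lower and 26.6% as higher. The median log2FC of the 8 members was -0.92, against -0.03 for all tested genes. With the length trend removed, 4 of the 8 were called lower (Ser, Su(H), neur and mam), against 22.0% of all genes, and the median of the 8 was -0.37 against 0.07. In that setting 29.3% of all genes were called higher and 0 of the members by edgeR, with 0 higher at an unadjusted p below 0.05. The replicate number as a block left the 6 calls as they were, with 30.5% of all genes then lower. A fall of at least 2-fold was called for 4 members (N, Ser, neur and mam) and for 12.1% of all genes. In 6 of the 8 genes (Ser, Su(H), H, neur, mam and numb), every larval library lay above every prepupal library, which was also the case for 31.8% of the tested genes.

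**Figure D1:**
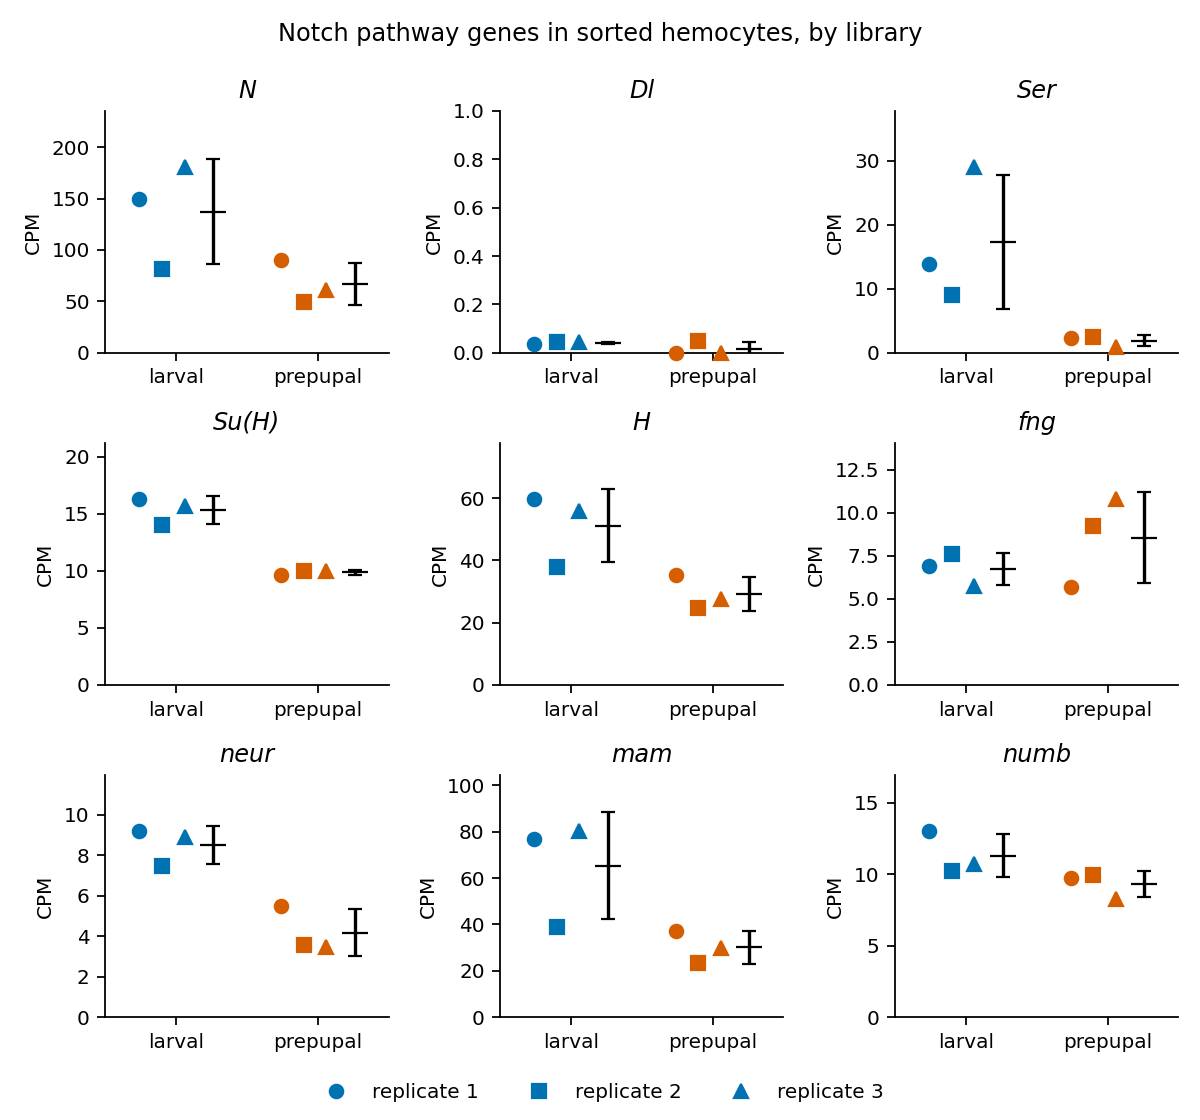
Expression of the 9 Notch pathway genes in CPM (linear axes from 0) in each larval (blue) and prepupal (orange) library, with the symbol giving the replicate number and the black bars the mean ± SD of 3 libraries. The larval and prepupal points of N overlap, those of Ser do not, and no point of Dl exceeds 0.0495 CPM.

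The receptor gene N (FBgn0004647, chromosome X, 3134870 to 3172221 of dm6, plus strand) was the member with the most counts. It had 4140, 1788 and 4209 counts in larval replicates 1, 2 and 3 and 1598, 998 and 1171 in prepupal replicates 1, 2 and 3, or 150.0, 81.2 and 181 CPM against 89.9, 49.4 and 61.5 CPM. The groups overlapped, because larval replicate 2 lay below prepupal replicate 1. The mean was 137 ± 51.0 CPM in larvae and 66.9 ± 20.8 CPM in prepupae (SD, n = 3 each), and N was called lower (log2FC -1.04, SE 0.29, edgeR FDR = 0.013). The call for N was lost with the length trend removed (log2FC -0.34, SE 0.17, edgeR FDR = 0.11). It was also lost without prepupal replicate 2 (-0.86, edgeR FDR = 0.052) or prepupal replicate 3 (-0.98, edgeR FDR = 0.051). With 10150 bp of exons, N is the longest of the 9 genes.

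The ligand genes differed in abundance. Dl (FBgn0000463, chromosome 3R, 19302731 to 19326217, minus strand), which encodes the ligand Delta, had 1, 1 and 1 counts in the larval and 0, 1 and 0 counts in the prepupal libraries. Every library was below 3 counts, the floor used here, which corresponds to between 0.109 and 0.169 CPM, so that no fold change is given. Expression of Dl below this level was not detectable at this depth.

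Ser (FBgn0004197, chromosome 3R, 27172090 to 27194267, minus strand) encodes the other Notch ligand, Serrate, and showed the widest change of the 8 tested members. Larval libraries held 383, 199 and 677 counts of Ser, and prepupal libraries 41, 51 and 16. In CPM these were 13.9, 9.04 and 29.1 against 2.31, 2.52 and 0.84. The lowest larval library lay above the highest prepupal library. From 17.3 ± 10.4 CPM the mean fell to 1.89 ± 0.916 CPM (SD, n = 3 each), a log2FC of -3.19 (SE 0.49, edgeR FDR = 0.00056), which is 9.14-fold lower in prepupae. The larval libraries differed widely among themselves, and the log2FC was -2.58 without larval replicate 3, the library with the most Ser. With the length trend removed it was -2.64 (SE 0.44, edgeR FDR = 0.00081), and leaving out any single library did not remove the call. Ser ranked as number 104 among the 2159 genes called lower.

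Within a library, N gave 10.8, 8.98 and 6.22 counts for each count of Ser in larval replicates 1, 2 and 3, and 39.0, 19.6 and 73.2 in prepupal replicates 1, 2 and 3. The scaling of the libraries cancels in this ratio, but the length trend does not fully cancel, and the stages did not overlap. N was also set against numb and fng. The counts of N per count of numb were 12.1 ± 4.45 in larvae and 7.2 ± 2.14 in prepupae (SD, n = 3 each). Per count of fng they were 21.3 ± 10.4 and 8.97 ± 5.94. Both of these ratios overlapped between the stages. The difference between the fold changes of N and Ser was not tested. Markers of crystal cells were also lower in prepupae (median log2FC -1.71), as were 7 of the 8 plasmatocyte markers (median of the 8 -1.70). Among the larval libraries, replicate 3 had the most Ser (29.1 CPM), PPO1 (1360 CPM) and PPO2 (1840 CPM). Larval replicate 2 had the least of each (9.04, 833 and 1210 CPM). Among the prepupal libraries, replicate 2 had the most Ser (2.52 CPM) but the least PPO1 (327 CPM) and PPO2 (228 CPM). Of the 5 crystal cell markers listed, 4 were tested and all 4 were called lower (lz, peb, PPO1 and PPO2), against 27.3% of all genes. Removing the length trend left 3, without peb, whose stages overlapped, and PPO1 (log2FC -0.92) lost its call without larval replicate 3 (-0.66, edgeR FDR = 0.065) or prepupal replicate 3 (-0.95, edgeR FDR = 0.052). The summed expression of the 5 markers, nearly all of it PPO1 and PPO2, was 2050 to 3210 CPM in larval and 555 to 1470 CPM in prepupal libraries. None of the 5 was at 0 in all libraries, and their part in the fall of Ser was not tested. The 5 progenitor and niche markers of the lymph gland summed to 462 to 544 CPM in larval and 369 to 569 CPM in prepupal libraries, most of it Tep4. Of the others, dome was at 27.1 and 20.2 CPM and shg at 2.10 and 2.08 CPM in the larval and prepupal means, while kn had 5 larval and 2 prepupal counts and Antp 1 and 6 in all.

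The glycosyltransferase Fringe, encoded by fng (FBgn0011591, chromosome 3L, 20925891 to 20949512, minus strand), modifies Notch and shifts its preference towards Delta. Its expression was 6.90, 7.59 and 5.75 CPM in larval and 5.68, 9.21 and 10.8 CPM in prepupal replicates 1, 2 and 3. Prepupal replicate 1 lay below every larval library, and the other prepupal libraries lay above all of them. The log2FC was 0.34 (SE 0.25, edgeR FDR = 0.26) and did not pass the test, except without prepupal replicate 1 (0.57, edgeR FDR = 0.047). It was 0.41 with the length trend removed (edgeR FDR = 0.17). fng has 1959 bp of exons, the shortest of the 9, and shares 22 of them with CG10589, an antisense neighbour of at most 4 counts per library.

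Neuralized, the product of neur (FBgn0002932, chromosome 3R, 9020348 to 9039471, minus strand), is a ubiquitin ligase that sends the ligands into endocytosis. Larvae gave 253, 164 and 207 counts of neur and prepupae 98, 72 and 66, or 9.19, 7.45 and 8.89 CPM against 5.51, 3.56 and 3.47 CPM, with no overlap. The log2FC was -1.03 (SE 0.23, edgeR FDR = 0.0045). neur was still called without the length trend (log2FC -0.64, SE 0.21, edgeR FDR = 0.025). neur shares 1673 exonic bp with asRNA:CR31429 on the opposite strand. The libraries keep no strand, so reads from both cannot be told apart, and the antisense gene was not analysed here.

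Numb, which inhibits Notch in the cell that inherits it at asymmetric divisions, is encoded by numb (FBgn0002973, chromosome 2L, 9437469 to 9464184, plus strand). Its expression was 13.0, 10.2 and 10.7 CPM in the larval and 9.73, 9.95 and 8.30 CPM in the prepupal libraries. The groups did not overlap, but the gap was small, and the log2FC of -0.28 (SE 0.17, edgeR FDR = 0.18) did not pass the test. Total-count scaling, under which the median of all genes was -0.22, brought numb to -0.48 (edgeR FDR = 0.033). With the length trend removed, numb lay on the other side of 0 (0.16, edgeR FDR = 0.42), so no direction is given for it.

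The 3 nuclear members were all called lower. Su(H) (FBgn0004837, chromosome 2L, 15039488 to 15043334, plus strand), the DNA-binding protein of the pathway, had 449, 308 and 365 counts in larval and 171, 203 and 190 counts in prepupal replicates 1, 2 and 3, or 15.3 ± 1.20 and 9.88 ± 0.232 CPM (SD, n = 3 each). In CPM the prepupal libraries were nearly identical, and all lay below the larval ones. The log2FC of Su(H) was -0.63 (SE 0.14, edgeR FDR = 0.0042), or 1.55-fold lower. It was -0.39 with the length trend removed (SE 0.13, edgeR FDR = 0.025), and no single library removed the call.

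Hairless, which ties Su(H) to the corepressors Groucho and CtBP, is encoded by H (FBgn0001169, chromosome 3R, 20621938 to 20628915, plus strand). H had 59.7, 37.9 and 55.9 CPM in the larval and 35.2, 24.7 and 27.7 CPM in the prepupal libraries. Larval replicate 2 came close to prepupal replicate 1 without reaching it. The log2FC was -0.81 (SE 0.19, edgeR FDR = 0.0058). With the length trend removed it was -0.29 and no longer called (edgeR FDR = 0.066), while the same setting with the replicate number as a block gave -0.29 with a call (edgeR FDR = 0.034).

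The coactivator gene mam (FBgn0002643, chromosome 2R, 13991203 to 14060356, plus strand) had 77.0, 39.0 and 80.2 CPM in the larval and 37.2, 23.2 and 30.0 CPM in the prepupal libraries. Again the groups stayed apart only narrowly, because of larval replicate 2. Its log2FC was -1.12 (SE 0.27, edgeR FDR = 0.0059), or -0.45 with the length trend removed (SE 0.15, edgeR FDR = 0.026). Both were also set against Su(H) within a library. H gave 3.66, 2.71 and 3.57 counts per count of Su(H) in larval and 3.66, 2.45 and 2.78 in prepupal libraries, and mam gave 4.72, 2.79 and 5.12 against 3.87, 2.31 and 3.01. Both ratios overlapped between the stages.

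**Figure D2:**
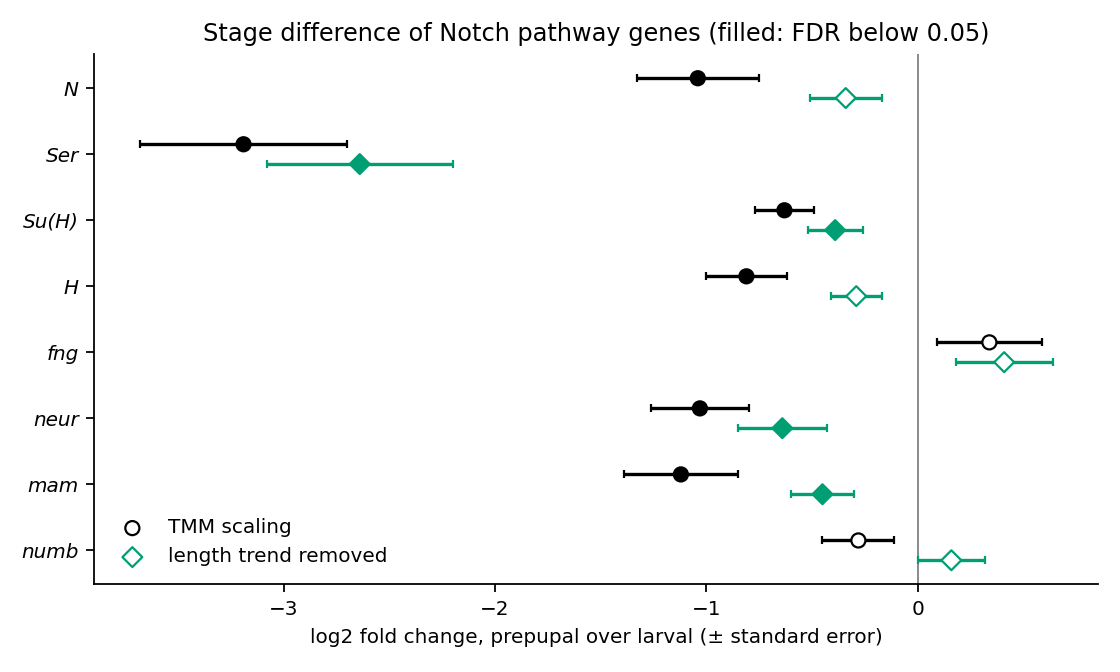
Log2 fold change (prepupal over larval, ± standard error, 3 libraries per stage) of the 8 tested genes with TMM scaling (black circles) and after removal of the length trend (green diamonds), with filled symbols for an FDR below 0.05. Ser lies at -3.19 and -2.64, while N moves from -1.04 to -0.34 and loses its call.

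Removing the length trend moved the log2FC of N, mam, Ser and H further than that of the shorter members. Among the 1119 tested genes with at least 5000 bp of exons, which include N, Ser, H and mam, 51.7% were called lower in prepupae, with a median log2FC of -0.55. Among the 2998 genes of 2000 to 5000 bp, which include Su(H), neur and numb, 35.5% were called lower, with a median of -0.20. Among the 3756 shorter genes, which include fng, 13.3% were called lower, with a median of 0.27. After removal of the trend these shares were 25.9%, 23.9% and 19.2%. Libraries of the same stage also differed. Larval replicate 2 was the lowest larval library for 7 of the 8 tested members, all except fng, the shortest. The share of all tested genes with this library lowest is not given here, so the count is not particular to the members.

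**Figure D3:**
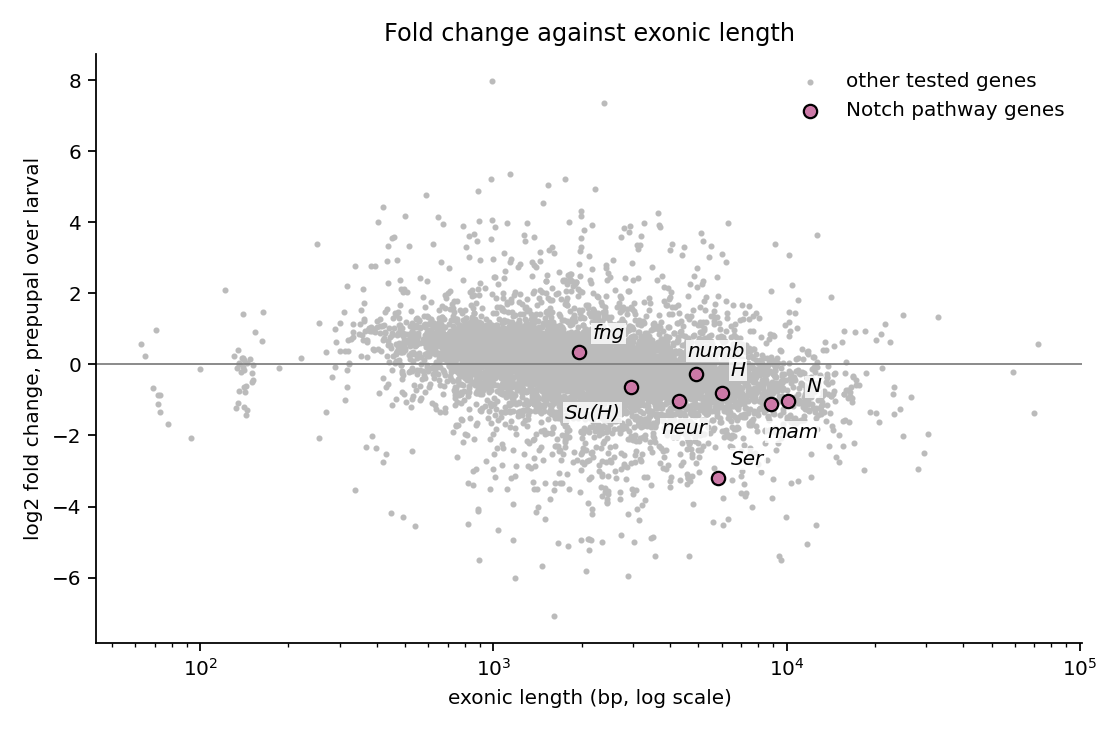
Log2 fold change (prepupal over larval) against exonic length in bp (log axis) for 7873 tested genes, with the 8 tested Notch pathway genes in pink. The cloud slopes down with length (Spearman -0.40), N, mam and H lie within it, and Ser lies below most genes of its length at -3.19.

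To compare levels between the genes, CPM were divided by the kb of exons of each gene. The length trend was not removed from these levels, so shifts of longer and shorter genes between the stages also carry it. On this scale N was the most abundant member in larval hemocytes at 13.5 ± 5.03 CPM per kb (SD, n = 3), close to the median of all tested genes (12.5), and 52.2% of the tested genes lay below it. H followed with 8.53 ± 1.94, mam with 7.37 ± 2.58 and Su(H) with 5.20 ± 0.407 CPM per kb, and the libraries of each of these overlapped those of its neighbour in this order. After a gap, fng (3.44 ± 0.473), Ser (2.97 ± 1.79), numb (2.30 ± 0.305) and neur (1.98 ± 0.216 CPM per kb) again overlapped from neighbour to neighbour, and Dl came last with 0.00788 CPM per kb. In prepupae N remained at the top of the order with 6.59 ± 2.05 CPM per kb, where 37.6% of the tested genes lay below it. It was followed by H (4.86), fng (4.36), mam (3.40) and Su(H) (3.35 CPM per kb), each overlapping its neighbour. Ser dropped from the sixth to the eighth place, at 0.324 ± 0.157 CPM per kb, below numb (1.90) and neur (0.970), with no overlap between these neighbours.

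The rest of the pathway was described with lists of 70 further genes in 8 roles, of which 67 were in the table and 53 were tested. Of these 53 genes, 12 were called higher and 17 lower in prepupae, and their median log2FC was -0.17. These are shares of 22.6% and 32.1%, near the 26.6% and 27.3% of all tested genes, and the same background holds for each role below. The balance turned with the length trend removed, with 17 higher and 8 lower and a median of 0.04, where 29.3% and 22.0% of all genes were called. Scaling by total counts gave 7 higher and 20 lower. The number called was 19 both without larval replicate 1 and without prepupal replicate 2, against 29 with all libraries.

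**Figure D4:**
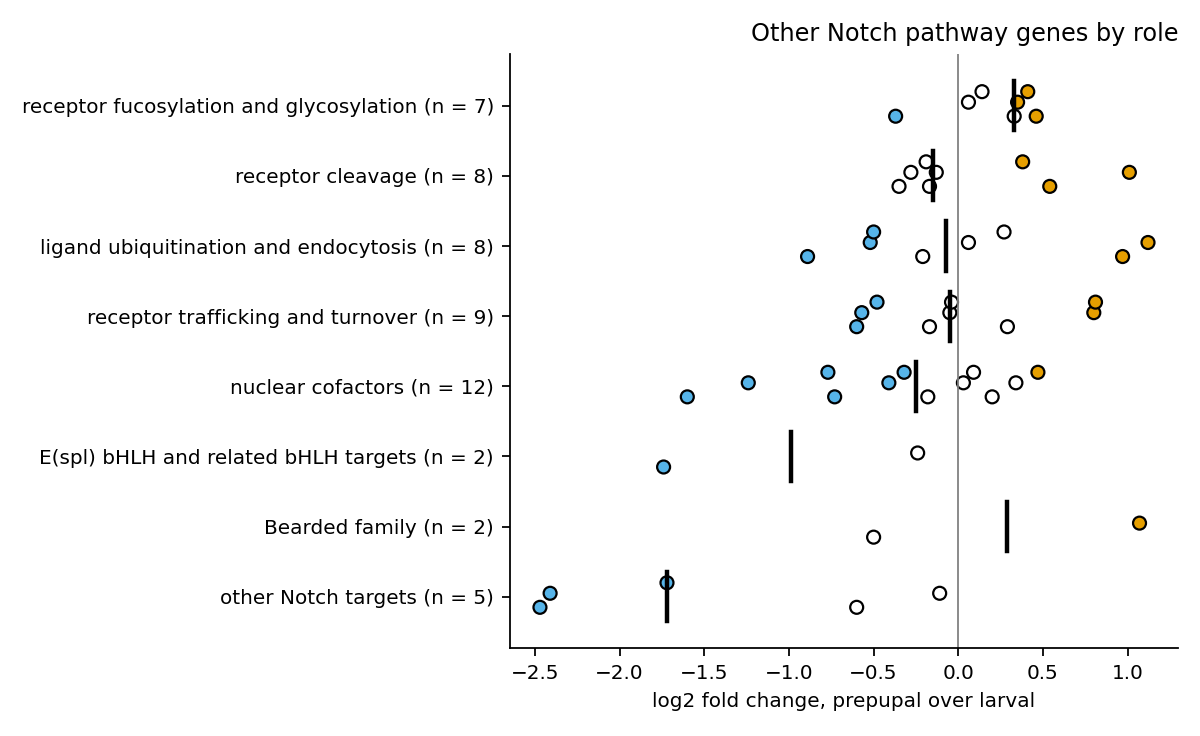
Log2 fold change (prepupal over larval) of the 53 tested genes of the other Notch pathway lists, 1 row per role with the number tested. Orange points were called higher, blue points were called lower, white points were not called and black bars are medians, and the nuclear cofactors hold 6 blue points and 1 orange point.

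Notch carries sugars on its extracellular repeats, some of which it needs to fold and to bind ligands. Of the 7 genes listed for adding such sugars, 3 were called higher and 1 lower, where 26.6% and 27.3% of all genes were. Scaling by total counts left 0 higher and 1 lower. The O-glucosyltransferase gene rumi had a log2FC of 0.46 (SE 0.12, edgeR FDR = 0.011). The xylosyltransferase genes shams and Xxylt moved apart, at 0.41 (edgeR FDR = 0.046) and -0.37 (edgeR FDR = 0.044). Under scaling by total counts, rumi (0.26) and shams (0.21) lost their calls. shams also lost its call with the length trend removed (0.34) and without larval replicates 1 or 2 or prepupal replicates 2 or 3, and Xxylt without any 1 of larval replicates 1, 2 and 3 and prepupal replicates 1 and 2. O-fut1, which adds the fucose that Fringe extends, was at 88.3 ± 4.76 and 91.8 ± 11.0 CPM (SD, n = 3 each; log2FC 0.06, edgeR FDR = 0.72).

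Of the 8 genes for cutting the receptor, 3 were called higher, against 26.6% of all genes. With all libraries, none was called lower by edgeR or limma-voom under TMM scaling or by DESeq2 with its own size factors. In edgeR, 0 were lower at an unadjusted p below 0.05. The 3 genes belong to the γ-secretase, the protease that frees the intracellular part. Its subunit gene pen-2 rose from 21.6, 31.0 and 23.1 CPM in larval to 46.2, 61.2 and 45.2 CPM in prepupal replicates 1, 2 and 3, without overlap (log2FC 1.01, SE 0.17, edgeR FDR = 0.0011). It shares 565 exonic bp with sbb in antisense, a gene with up to 3614 counts, so its reads could be mixed with those of sbb. The catalytic subunit gene Psn had a log2FC of 0.54 (SE 0.11, edgeR FDR = 0.0031), and 0.63 with the length trend removed. The third, aph-1 (0.38, edgeR FDR = 0.032), lost its call with the length trend removed (0.11) or under scaling by total counts (0.18), and without any library other than larval replicate 2. The last subunit, Nct, was not called (log2FC -0.19, edgeR FDR = 0.20), except as lower under scaling by total counts (-0.39). Once the length trend was removed, 4 genes of the list were called higher, against 29.3% of all genes. These were pen-2, Psn and the furin genes Fur1 (0.49, edgeR FDR = 0.0038) and Fur2 (0.42, edgeR FDR = 0.009), proprotein convertases that lay at -0.17 and -0.13 before, without a call. The ADAM protease gene kuz, which makes the preceding cut outside the membrane, was at 299 ± 112 and 234 ± 43.1 CPM (SD, n = 3 each) and did not pass the test (log2FC -0.35, edgeR FDR = 0.28). Without larval replicate 2 it was called lower (-0.60, edgeR FDR = 0.0068), and with the length trend removed it lay at 0.25 without a call.

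Ligand ubiquitination and endocytosis comprised 8 genes, of which 2 were called higher and 3 lower, against 26.6% and 27.3% of all genes. The balance reversed with the length trend removed, to 5 higher and 0 lower by edgeR (1 at an unadjusted p below 0.05), against 29.3% and 22.0%. With the replicate block as well it was 5 higher and 1 lower. The clathrin adaptor gene AP-2mu rose from 327, 393 and 291 to 728, 781 and 687 CPM (log2FC 1.12, SE 0.14, edgeR FDR = 0.00016), and AP-2sigma had a log2FC of 0.97 (edgeR FDR = 0.00033). Another subunit of the same adaptor, AP-2alpha, was lower (-0.52, edgeR FDR = 0.0048), a call that was lost with the length trend removed (-0.09). The epsin gene lqf, whose product takes up ubiquitinated ligands, had a log2FC of -0.89 (SE 0.15, edgeR FDR = 0.00088), and -0.36 with the length trend removed (edgeR FDR = 0.054). It was called lower when the replicate block was added to that setting (-0.37, edgeR FDR = 0.02). The ligase gene mib1, which acts on the ligands as neur does, was at 96.2 ± 4.23 and 116 ± 11.6 CPM (SD, n = 3 each). Its log2FC of 0.27 was not called (edgeR FDR = 0.066), but was with the replicate block (edgeR FDR = 0.027) and with the length trend removed (0.63, edgeR FDR = 0.0011).

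Among 9 genes for trafficking and turnover of the receptor, 2 were called higher and 3 lower, against 26.6% and 27.3% of all genes. After removal of the length trend, 4 were higher and 0 lower by edgeR (also 0 at an unadjusted p below 0.05), against 29.3% and 22.0%, and the 2 further genes were the ubiquitin ligase genes dx (0.63) and Nedd4 (0.42). The ubiquitin ligase gene Su(dx), whose product lowers Notch signalling, rose from 82.9, 78.4 and 74.6 to 153, 139 and 121 CPM (log2FC 0.81, SE 0.12, edgeR FDR = 0.00048). Removing the length trend gave 1.23. The ESCRT gene Vps25, which acts in sorting to the lysosome, had a log2FC of 0.80 (edgeR FDR = 0.0018). The arrestin gene krz (-0.60) and the Numb-associated kinase gene Nak (-0.57) were called lower, but lay at -0.14 and 0.01 with the length trend removed, without a call.

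Of 12 nuclear cofactors, 6 were called lower and 1 higher, against 27.3% and 26.6% of all genes. Of these 12, 3 were lower and 2 higher with the length trend removed, against 22.0% and 29.3%. The corepressor gene Smr had 118, 49.7 and 116 CPM in larval and 41.3, 21.8 and 30.6 CPM in prepupal libraries, without overlap (log2FC -1.60, SE 0.33, edgeR FDR = 0.0027). The Mediator gene skd had a log2FC of -1.24 (SE 0.23, edgeR FDR = 0.0017). The corepressor gene gro, chosen here after its values were seen because it binds Hairless, had one of -0.77 (SE 0.14, edgeR FDR = 0.0014). With the length trend removed, Smr (-0.83), skd (-0.51) and gro (-0.37) were all still called lower. The exons of gro share 181 bp with Exo84 in antisense, a gene with up to 1182 counts. The cyclin gene CycC was the 1 called higher (0.47, edgeR FDR = 0.011), and lost its call under scaling by total counts (0.27) or with the length trend removed (0.27). CtBP, the other corepressor bound by Hairless, was at 248 ± 43.6 and 218 ± 13.6 CPM (SD, n = 3 each; log2FC -0.18, edgeR FDR = 0.29). It was called higher with the length trend removed (0.36, edgeR FDR = 0.0078).

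The best known targets of Notch are the bHLH repressor genes and Bearded family genes of the E(spl) complex on chromosome 3R. Of its 7 bHLH genes, only E(spl)mbeta-HLH and E(spl)m3-HLH had enough counts to be tested. E(spl)mbeta-HLH alone took between 95.7% and 98.9% of the bHLH counts of the complex in every library. It had 105, 99.8 and 113 CPM in larval and 113, 82.8 and 73.8 CPM in prepupal replicates 1, 2 and 3. The groups overlapped, and the log2FC of -0.24 (SE 0.16, edgeR FDR = 0.22) did not pass the test. E(spl)mbeta-HLH was called lower without prepupal replicate 1 (-0.43), under scaling by total counts (-0.44, edgeR FDR = 0.038) and with the length trend removed (-0.52, edgeR FDR = 0.019).

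E(spl)m3-HLH was counted 107, 75 and 111 times in larval and 39, 12 and 16 times in prepupal libraries, and its log2FC was -1.74 (SE 0.44, edgeR FDR = 0.0085). It was -1.87 with the length trend removed (edgeR FDR = 0.0058). No library held more than 4 counts of any other bHLH gene of the complex, and the related bHLH genes Hey and dpn had 0 counts in all 6. A count of 0 allows a level of up to 0.169 CPM in the shallowest library. The E(spl) bHLH genes are paralogs of each other, so that reads of similar stretches could have been assigned to the wrong gene.

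The Bearded family, small proteins that block Neuralized, had few counts. Of 7 genes in the table, 2 were tested. E(spl)malpha-BFM had the most, with 55, 30 and 31 counts in larval and 53, 84 and 52 in prepupal libraries (log2FC 1.07, SE 0.32, edgeR FDR = 0.017). Its call was lost with the length trend removed (0.58, edgeR FDR = 0.13) and without prepupal replicate 2 (0.86, edgeR FDR = 0.073). Of the untested genes, Tom had the most counts, with 7, 0 and 6 in larval and 11, 8 and 8 in prepupal libraries. BobA, BobB and BobC were not analysed here.

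**Figure D5:**
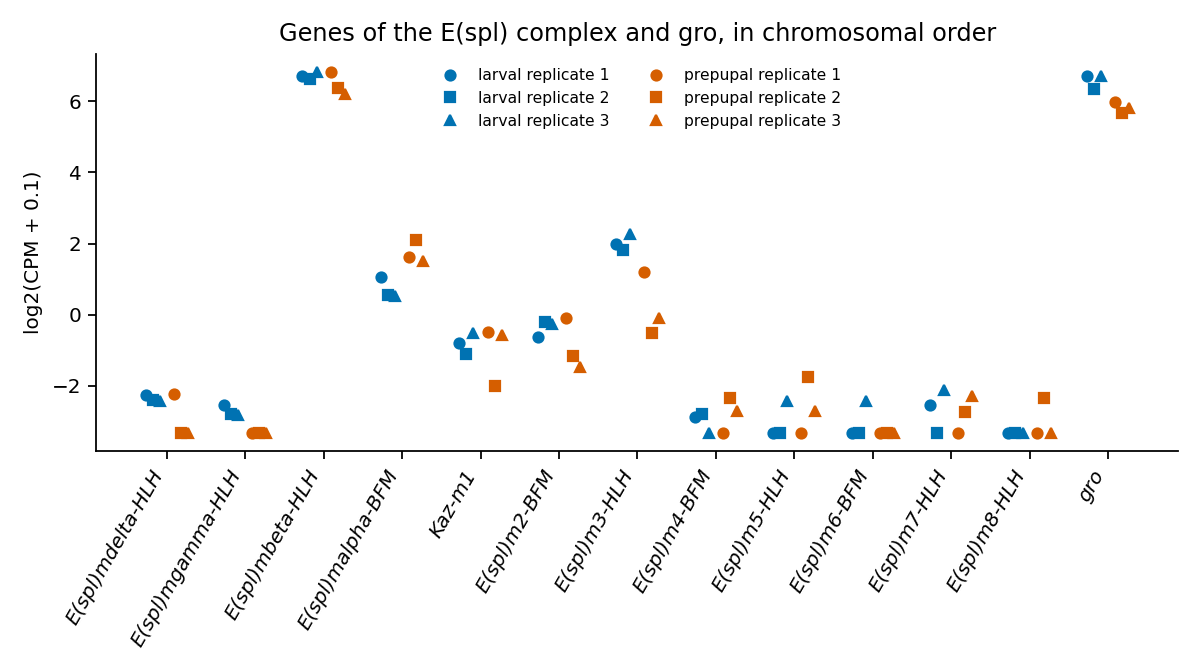
Expression, as log2(CPM + 0.1), of the 12 genes of the E(spl) complex and of gro, in their order along the chromosome, in each larval (blue) and prepupal (orange) library. E(spl)mbeta-HLH is the highest of the complex in all 6 libraries, at 73.8 to 113 CPM.

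Among 7 other genes known as Notch targets, 5 were tested, and 3 were called lower, against 27.3% of all genes. After removal of the length trend it was 2, against 22.0%. None was called higher by edgeR, DESeq2 or limma-voom, and 0 were higher at an unadjusted p below 0.05 in edgeR. The Runx factor gene lz, which directs crystal cell fate, had 46, 27 and 79 counts in larval and 15, 3 and 3 in prepupal libraries (log2FC -2.47, SE 0.67, edgeR FDR = 0.011), and -2.16 with the length trend removed (edgeR FDR = 0.018). Prepupal replicates 2 and 3 of lz lay at the floor of 3 counts, and leaving out single libraries gave a log2FC of -3.73 to -1.92. Myc, the growth regulator, had 603, 144 and 645 counts in larval and 71, 61 and 68 in prepupal libraries. Its log2FC was -2.41 (SE 0.45, edgeR FDR = 0.0016), and -1.68 with the length trend removed (edgeR FDR = 0.0020). As with N and mam, larval replicate 2 was the lowest larval library for Myc, yet it lay above every prepupal library. Its exons share 3754 bp with CG12535 in antisense, a gene with at most 36 counts per library, and 1859 bp with lncRNA:CR44999 on the same strand, which was not analysed here. The third was peb (-1.72, edgeR FDR = 0.041), which lost its call with the length trend removed and without larval replicates 1 or 3 or prepupal replicates 2 or 3. Both lz and peb are also markers of crystal cells, whose summed markers fell as given above, and their part in these values was not tested. The crystal cell gene klu was too low to be tested, with 13, 5 and 24 counts in larval and 1, 0 and 2 in prepupal libraries.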

How the data were processed

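The authors sequenced polyadenylated RNA as single reads without strand information, trimmed them with trimmomatic and mapped them to the dm6 genome using STAR and Ensembl gene models. They deposited raw counts per gene, 1 column per library, without normalization. The submitters' processing notes name featureCounts, with settings not given in the sources used here. All 6 columns matched a sample by name, and the stage came from the sample titles.

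The counts were tested with edgeR 4.0.16 in R 4.3.3 (TMM, filterByExpr with a minimum count of 10, quasi-likelihood F test, stage only). The standard error is the log2 fold change divided by the square root of F. For the length trend, a loess curve (span 0.5) of log2 CPM (prior count 2) against exonic length was drawn per library, and its values entered the edgeR model as offsets. Lengths were summed from newer Ensembl gene models of this assembly, in which 13298 of 13332 shared genes had identical coordinates. The scripts were tested on simulated data.

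Totals lay between 19228352 and 25958543 counts per library, which sets a floor of 3 counts at 0.109 to 0.169 CPM, for counting error only. Same-numbered libraries of the stages deviated together from their stage means, with correlations across genes of 0.277, 0.300 and 0.102 for replicates 1, 2 and 3. Libraries of different numbers gave -0.293 to 0.0208. Deviations of a gene cancel out within a stage, so these values are not separate evidence. The numbers were taken as pairs from the same-number correlations alone, the lowest being that of replicate 3, as no label says what a number stands for. The main test did not use these pairs, and the replicate block was run as an alternative.

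The members and lists were chosen with earlier results of these data known. Every member was named, and from each other list the 2 called genes with the largest log2 fold change in each direction and the untested gene with the most counts. Further genes of the lists (gro, CtBP, mib1, kuz, Nct, aph-1, O-fut1, peb and E(spl)mbeta-HLH) were added after their values were seen. The same holds for Fur1, Fur2, dx and Nedd4. Symbols were matched to the table directly or, for 6 genes, through RefSeq synonyms. Alternatives were DESeq2 1.42.0, limma-voom 3.58.1, other scalings, filters and thresholds, and leaving out each library.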

Additional observations from a re-analysis of the deposited data

How the results depend on the processing

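Under every alternative set with the design, between 4 and 7 of the members were called. Only fng was ever called higher, without prepupal replicate 1. The replicate block left 6 members called and changed no call among them. The number of called genes was 4264 over the whole table, 1580 with at least 2-fold also required, and 3251 to 4552 with each library left out in turn. Scaling by total counts gave 1456 higher genes among 4383 called, against 2105 of 4264. For the other pathway lists, 29 genes were called, 33 with the replicate block, 9 with at least 2-fold, 15 at an FDR below 0.01, and 19 to 33 with each library left out. Nak changed sign with the length trend removed, to 0.01, and to 0.02 with the block as well. In both fits it was then not called. The members' counts were 5 to 7 with each library left out. The precision of Dl, Hey, dpn and most genes of the E(spl) complex was limited by counts at or near 0.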

Other observations

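Over the 6 libraries, the genes whose log2 CPM followed N most closely were CG30069 (Pearson r = 0.997), Dhc62B (r = 0.996) and CG10188 (r = 0.994), out of 7913 compared. This is a description of 6 points that share libraries, depth and the stage difference, and 187 genes had an r above 0.95. Among the progenitor and niche markers, Tep4, named here after its values were seen, stood at 467 ± 42.7 CPM in larval and 466 ± 99.5 CPM in prepupal libraries (SD, n = 3 each). Its log2FC was -0.00 (edgeR FDR = 0.99), and 0.41 with the length trend removed (edgeR FDR = 0.023).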
